A study of Mus musculus with 26 samples.

Results

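This account follows the mRNAs of 10 RNA-binding proteins that act in glial cells. They are Quaking (Qk), the muscleblind proteins Mbnl1 and Mbnl2, the CELF proteins Celf1 and Celf2, the Musashi proteins Msi1 and Msi2, and the fragile X family Fmr1, Fxr1 and Fxr2. They were selected by gene symbol. Of the 10, 9 were listed, each as 1 transcript, among the 8177 transcripts listed for both cell types, and all 9 had a half-life in every replicate. Fmr1 had no row in the tables and is not analysed here.

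Mouse oligodendrocyte progenitor cells (OPCs) were compared with oligodendrocytes (OLs) to measure how fast mRNAs are lost in each cell type. OPCs came from epiblast stem cells of strain 129S/SvEv and were kept in medium with bFGF and PDGFA. For OLs, OPCs were first passaged in that medium without bFGF. They then spent 40 h, before the label was added, in medium with thyroid hormone (T3), noggin, IGF-1, cyclic AMP and NT3. Both cell types then received the uridine analogue 5-ethynyl uridine (5-EU) for 24 h, which was replaced by uridine, and labelled RNA was captured after a chase of 0, 1, 2, 4 and 6 h. The 25 chase libraries are 3 OPC replicates and 2 OL replicates at the 5 times. Cell stage and medium changed together, so they cannot be told apart. All cells were derived in culture from pluripotent cells. An OPC sample without biotin, the background control of the capture, is not analysed here, so no background was subtracted from the values. The study calls the replicates biological, and states that the OLs match a pair of the OPC replicates.

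Quaking is a STAR-family protein whose isoforms shape splicing, stability and export of mRNAs for myelin, and its loss in the quaking mouse leaves myelin thin. Muscleblind and CELF proteins act on many of the same transcripts, often in opposite directions, and both are disturbed in myotonic dystrophy. Musashi proteins are translational regulators of neural stem and progenitor cells. The fragile X proteins bind mRNAs on ribosomes and in transport granules, and absence of the Fmr1 product causes fragile X syndrome.

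QKI proteins bind a bipartite sequence, the QKI response element, and Quaking is known to regulate its own mRNA and those of other splicing factors, so the members' own 3′ UTRs were searched for it. The search was for ACTAAC or ACTAAT followed after 1 to 20 bases by TAAC or TAAT, on the sense strand of the listed transcript as annotated in GENCODE M21 (GRCm38). A match lay in 3 of the 9 members, against 9.10% of the 8095 transcripts listed for both cell types that have an annotated 3′ UTR. Per kb of 3′ UTR, which allows for the members' longer 3′ UTRs, there were 0.147 matches in the members and 0.0630 in all. The members' value rests on these 3 genes. The parts TAAC and TAAT were also denser in the members, at 3.66 against 2.79 and 5.37 against 4.37 per kb. The sites are shown because they are the members' own matches to the sequence of the most abundant member, with the matched letters in capitals and the spacer in lower case.
Qk: ACTAATcaccTAAT
Mbnl2: ACTAATtgttgTAAC
Celf2: ACTAATgtgcagttcTAAC
The Qk site is at chr17:10213911-10213924 on the reverse strand, from base 245 of a 3′ UTR of 3891 bases. The Mbnl2 site is at chr14:120430955-120430969 on the forward strand, from base 2006 of a 3′ UTR of 2748 bases. The Celf2 site is at chr2:6546708-6546726 on the reverse strand, from base 360 of a 3′ UTR of 846 bases. A match is a run of letters and not a measured binding site. The same 3 genes are those that passed the test of labelled RNA at 0 h given below, and that overlap was not tested.

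The 3′ UTRs differed widely in length. Those of Celf1 (6044 bases), Qk (3891 bases), Mbnl1 (3389 bases) and Mbnl2 (2748 bases) were longer than those of 81.4% to 97.9% of transcripts, whereas Fxr1 had 255 bases, which is longer than 12.6%. ATTTA, the core of AU-rich elements, was present in 7 of 9 members against 70.9% of all 3′ UTRs. It occurred 11 times in Qk, 10 times in Mbnl1 and in Celf1, and 9 times in Mbnl2, and was absent from the short 3′ UTRs of Msi2 and Fxr1. GTAG, which holds the Musashi core, was present in 7 of 9 members against 81.0% of all 3′ UTRs. TGCT, a muscleblind element, was present in 9 of 9 against 93.2%. TGTGT, a CELF element, was present in 7 of 9 against 79.5%, with 24 copies in Celf1. Per kb it was rarer in the members (1.86) than in all 3′ UTRs (3.25). The Rbfox element GCATG was present in 6 of 9 against 60.2%. The core ACTAA alone, which every response element contains, was present in 6 of 9 against 55.5%, and the single-site spellings TAAC and TAAT in 9 and 8 of 9 against 80.5% and 85.4%.

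Codon use also varied among the members. UUU made up 88.9% of phenylalanine codons in Celf1 (16 of 18) and 68.4% in Celf2 (13 of 19). In Msi1 it made up 18.2% (4 of 22) and in Msi2 48% (12 of 25), with a median of 44.6% over 8166 transcripts. AAA made up 69.0% of lysine codons in Fxr1 (29 of 42) and 25.9% in Fxr2 (7 of 27), with a median of 37.1%. G or C stood in the third codon position of 33.2% of Fxr1 codons and 56.6% of Fxr2 codons, and of 71.9% of Msi1 codons and 55.6% of Msi2 codons. Fxr1 and Fxr2, which encode closely related proteins, lay at opposite ends of the members for lysine codons.

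Before the members are compared, the markers of cell type give the context. Of 10 oligodendrocyte markers, 4 were listed for OPCs, with a summed level of 50.3 to 64.3 FPKM (reads per transcript length and library size) at 0 h, and 10 for OLs, with sums of 7102 and 3424 FPKM. The 5 OPC markers were listed for both, with sums of 223 to 353 FPKM in OPCs and 300.0 and 299 FPKM in OLs. Single OPC markers went opposite ways, with Cspg4 at 35.7 to 55.7 FPKM in OPCs and 30.7 and 29.9 FPKM in OLs, and Pdgfra, the PDGF receptor, at 11.5 to 26.5 FPKM in OPCs and 66.9 and 43.9 FPKM in OLs. Of 6 astrocyte markers, 3 were listed for OPCs (summed 366 to 445 FPKM) and 5 for OLs (557 and 546 FPKM), without Aqp4 in either. S100b was at 9.07 to 10.5 FPKM in OPCs and at 290.0 and 160.2 FPKM in OLs, whereas Slc1a3 was at 179 to 224 FPKM in OPCs and at 95.5 and 155 FPKM in OLs. Of 6 neuron markers, Tubb3 and Elavl4 were listed for OPCs (summed 15.8 to 20.5 FPKM) and Tubb3 and Elavl3 for OLs (50.6 and 38.1 FPKM), and Tubb3 alone was at 13.2 to 17.4 FPKM in OPCs and 24.6 and 24.5 FPKM in OLs. None of 4 microglia markers or 2 pluripotency markers was listed. The part of other cell types in the results below was not tested, and in bulk RNA fewer cells of a type and less RNA per cell cannot be told apart. The median transcript kept 11.3% to 18.1% of its 0 h FPKM after 6 h in OPCs and 33.0% and 39.4% in OLs. This shared difference is part of the members' values below, except where they are given against the median transcript or after centring or rescaling.

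The first comparison asks at what FPKM the labelled RNA of each gene stood at the end of labelling. The spike-in scaling was relative to each replicate's 0 h, so these values are shares of a library and not amounts per cell. Qk and Mbnl2 were higher in OLs, Celf2 was lower, and the other 6 members did not pass the test. Quaking is known to rise as oligodendrocytes mature, and Mbnl2 is the muscleblind paralogue that dominates splicing in brain. By limma on log2(FPKM + 1), 2 of 9 members were higher in OLs against 14.1% of all 8177 transcripts, and 1 of 9 was lower against 17.5%. The median difference of the members was 0.02 and that of all transcripts -0.01 on the log2 scale.

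Qk stood at 86.3, 217 and 152 FPKM in OPC replicates 1, 2 and 3, and at 292 and 333 FPKM in OLs. Both OL replicates were above every OPC replicate, and Qk was the most abundant member in each of the 5 replicates, above 89.0% to 99.3% of all transcripts. The difference was 1.13 ± 0.33 (SE, limma, OPC n = 3, OL n = 2) with an adjusted p of 0.0271. It did not pass without OPC replicate 3 (1.18, limma adjusted p = 0.0710), OL replicate 1 (1.23, limma adjusted p = 0.117) or OL replicate 2 (1.04, limma adjusted p = 0.158), and quantile normalization raised it to 1.70.

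The listed Qk transcript, ENSMUST00000097414, spans chr17:10206551-10319854 on the reverse strand in 8 exons and is annotated in GENCODE M21 as a nonsense-mediated decay transcript. Only 1 transcript per gene was listed, so the QKI isoforms, which differ in their C-terminal tails and in whether they stay in the nucleus, were not resolved.

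**Figure D1:**
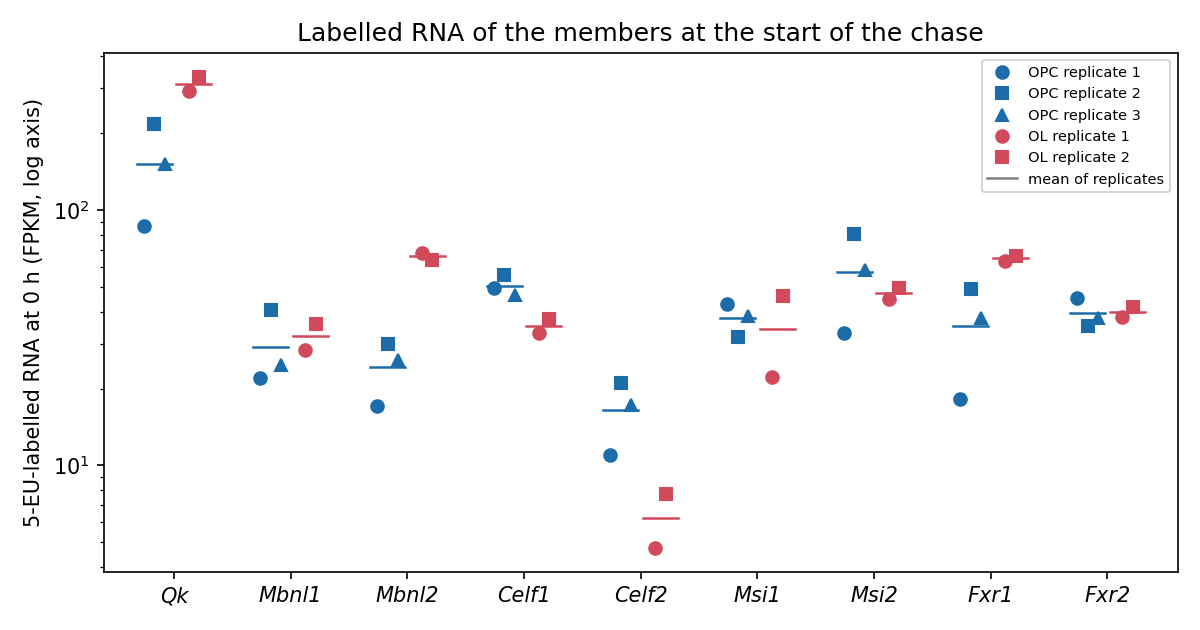
5-EU-labelled RNA of the 9 listed members at 0 h of the chase, in FPKM on a log axis. Points are replicates (3 OPC, 2 OL) and lines are means of replicates. Qk, Mbnl2, Fxr1, Celf1 and Celf2 are the members whose OPC and OL points do not overlap, of which Fxr1 and Celf1 did not pass the test. The share of all transcripts without overlap was not counted.

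Among the muscleblind genes, Mbnl2 was at 17.1, 29.8 and 25.9 FPKM in OPCs and at 67.9 and 63.7 FPKM in OLs. The OL values were both above all OPC values, by 1.44 ± 0.25 on the log2 scale (limma adjusted p = 0.00256), and this call was kept without any single replicate. Mbnl1 was at 22.0, 40.6 and 24.7 FPKM in OPCs and at 28.3 and 35.8 FPKM in OLs, so its groups overlapped (0.18 ± 0.28, limma adjusted p = 0.656). The log2 ratio of Mbnl1 to Mbnl2 within a library, each as FPKM + 1, was 0.34, 0.43 and -0.07 in OPCs against -1.23 and -0.81 in OLs. Without the pseudocount, where the scale of a library cancels, it was 0.36, 0.45 and -0.07 against -1.26 and -0.83. Neither set overlaps. The exact permutation test of the first set (two-sided, 10 splits) gave p = 0.1, the smallest that 3 against 2 allows, so it did not pass, and an adjusted p of 0.267 over the 4 paralogue pairs.

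Celf2 was the least abundant member, at 11.0, 21.05 and 17.3 FPKM in OPCs and 4.74 and 7.70 FPKM in OLs. CELF2 favours neuronal splice forms and lowers translation of some mRNAs. It was lower in OLs, with a difference of -1.26 ± 0.34 on the log2 scale (limma adjusted p = 0.0202), and did not pass without OPC replicate 3 (limma adjusted p = 0.0765) or OL replicate 1 (limma adjusted p = 0.169). Celf1, which binds GU-rich elements and speeds decay of the mRNAs that hold them, was at 49.6, 55.7 and 46.4 FPKM in OPCs and at 33.0 and 37.4 FPKM in OLs. Its groups did not overlap, but the difference of -0.51 ± 0.19 missed the threshold (limma adjusted p = 0.0655).

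The Musashi mRNAs did not differ in level by more than the spread between replicates. Msi1 was at 42.9, 31.9 and 38.6 FPKM in OPCs and at 22.1 and 46.1 FPKM in OLs, and Msi2 at 33.1, 80.3 and 58.4 FPKM in OPCs and at 45.0 and 49.5 FPKM in OLs. Their differences were -0.22 ± 0.30 and -0.18 ± 0.32 (limma adjusted p = 0.596 and 0.687). OPC replicate 1 was lowest of the OPC replicates for 6 of the members, Qk, Mbnl1, Mbnl2, Celf2, Msi2 and Fxr1, and highest for Msi1 and Fxr2.

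Of the fragile X relatives, Fxr1 was at 18.2, 49.1 and 37.8 FPKM in OPCs and at 63.3 and 66.2 FPKM in OLs, with no overlap. Its difference of 0.98 ± 0.35 missed the threshold (limma adjusted p = 0.0592), and passed it with each library centred on its median (limma adjusted p = 0.0466) and without OPC replicate 1 (limma adjusted p = 0.0473) or 2 (limma adjusted p = 0.0128). Fxr2 was at 45.3, 35.2 and 37.9 FPKM in OPCs and at 38.1 and 41.8 FPKM in OLs, a difference of 0.02 ± 0.20 (limma adjusted p = 0.944). Fxr1 shares 178 bases of its exons with Dnajc19, annotated on the opposite strand, and Mbnl2 shares 86 bases with Gm26679, also on the opposite strand. The counting is not stated to have used strand, so reads from those stretches cannot be assigned with certainty.

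The second comparison asks how fast the labelled RNA was lost. A slope of log2(FPKM + 1) against chase time was fitted with limma, where -1 per h would mean a 2-fold loss each hour on that scale. The slope fits took the libraries as independent, so their SEs are over libraries and not over replicates. In OPCs 8 of 9 members fell, against 81.7% of 8530 transcripts, and the exception was Msi2. In OLs 8 of 9 fell, against 65.1% of 9751 transcripts, and the exception was Msi1. Many other transcripts did not pass either, so 1 exception in each cell type is no result about the Musashi genes as a family.

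Msi1 lost most of its labelled RNA in OPCs and little in OLs. After 6 h it kept 12.7%, 14.8% and 16.6% of its 0 h FPKM in the OPC replicates and 76.3% and 65.5% in OLs. Against the median transcript of the same library, Msi1 was at -2.11, 3.45 and -1.49 points in OPCs and at 43.2 and 26.1 points in OLs. It was thus near the median in OPCs and above it in OLs. Its slopes were -0.44, -0.44 and -0.36 per h in OPCs and 0.00 and -0.09 per h in OLs, with no overlap. The OPC slope of -0.41 ± 0.04 passed (limma adjusted p = 1.47e-08), and the OL slope of -0.05 ± 0.07 did not (limma adjusted p = 0.556).

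For Msi2 the order was the other way round. In OPCs it kept 106%, 96.4% and 133% of its 0 h FPKM after 6 h, having stood at 250%, 120% and 163% at 4 h, while in OLs it kept 45.9% and 53.1%. Values above 100% mean that the scaled FPKM rose during the chase, most of all in OPC replicate 1 at 4 h. The slopes were 0.06, 0.00 and 0.11 per h in OPCs and -0.12 and -0.15 per h in OLs, again with no overlap. The OPC slope of 0.06 ± 0.05 did not pass (limma adjusted p = 0.332), whereas the OL slope of -0.13 ± 0.05 did (limma adjusted p = 0.0245) but not without OL replicate 2 (-0.12, limma adjusted p = 0.192) or without the 6 h libraries (-0.0437, limma adjusted p = 0.668). Without the 6 h libraries the OPC slope passed as a rise (0.21, limma adjusted p = 0.0137).

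The paralogues were also set against each other within libraries. The log2 ratio of Msi1 to Msi2, each as FPKM + 1, changed by -0.49, -0.44 and -0.47 per h in OPCs and by 0.11 and 0.06 per h in OLs. The mean difference was 0.55 per h, with SDs of 0.03 (n = 3) and 0.04 (n = 2). The exact permutation test gave p = 0.1, its smallest value, and an adjusted p of 0.4 over the 4 pairs. Without the pseudocount, where the scale of a library cancels, the changes were -0.53, -0.48 and -0.50 per h in OPCs and 0.12 and 0.06 per h in OLs.

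Fxr2 was lost fastest in OPCs among the members with FPKM above 0 in every library. It fell to 7.52%, 4.24% and 7.84% of its 0 h FPKM by 4 h in OPCs and to 69.2% and 68.2% in OLs. No OL value came near an OPC value at that time. The median transcript was then at 39.6%, 21.2% and 37.8% in OPCs and at 59.2% and 58.6% in OLs. At 6 h Fxr2 was at -0.39 and 3.06 points from the median transcript in the OL replicates. The slopes were -0.66, -0.72 and -0.73 per h in OPCs and -0.23 and -0.21 per h in OLs, both below 0 (limma adjusted p = 5.09e-09 and 0.000604). The OL call was lost without the 6 h libraries (-0.12, limma adjusted p = 0.151).

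Fxr1 varied more. It was listed at 0 FPKM at 6 h in OPC replicates 1 and 2 and at 3.61 FPKM in replicate 3, while OL replicates 1 and 2 stood at 14.2 and 33.3 FPKM. The slopes were -0.65, -1.01 and -0.53 per h in OPCs and -0.36 and -0.18 per h in OLs. They do not overlap, but the 2 listed zeros set part of the OPC slopes, and a listed 0 can be a failed estimate.

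For the remaining 5 members the slopes of the cell types overlapped. How many of all transcripts overlapped in this way was not counted. Qk kept 21.9%, 16.3% and 24.3% after 6 h in OPCs and 19.4% and 20.4% in OLs. Against the median transcript of the same library, Qk was at 7.16, 4.99 and 6.24 points in OPCs and at -13.6 and -19.0 points in OLs. Its slopes were -0.35, -0.48 and -0.34 per h against -0.38 and -0.39 per h, so the OL values lay inside the OPC range. The path differed, since at 2 h Qk was at 84.3%, 98.0% and 118% in OPCs and at 56.3% and 58.2% in OLs. Mbnl1 showed the same order at 2 h, with 99.0%, 79.5% and 106% in OPCs and 34.0% and 52.5% in OLs, and so did Mbnl2, with 97.1%, 91.6% and 85.8% against 51.9% and 67.6%. Celf1 was lost at mean slopes of -0.38 and -0.34 per h. Celf2 had the slowest loss of the 5, at -0.16 ± 0.06 per h in OPCs and -0.24 ± 0.10 per h in OLs (limma adjusted p = 0.0235 and 0.0436). These Celf2 calls were lost without OPC replicate 1 (-0.14, limma adjusted p = 0.0739), without OPC replicate 2 (-0.12, limma adjusted p = 0.163) and without OL replicate 1 (-0.06, limma adjusted p = 0.679), which lists it at 0 FPKM at 6 h. Without the 6 h libraries neither passed (-0.0410 and -0.20, limma adjusted p = 0.707 and 0.244).

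**Figure D2:**
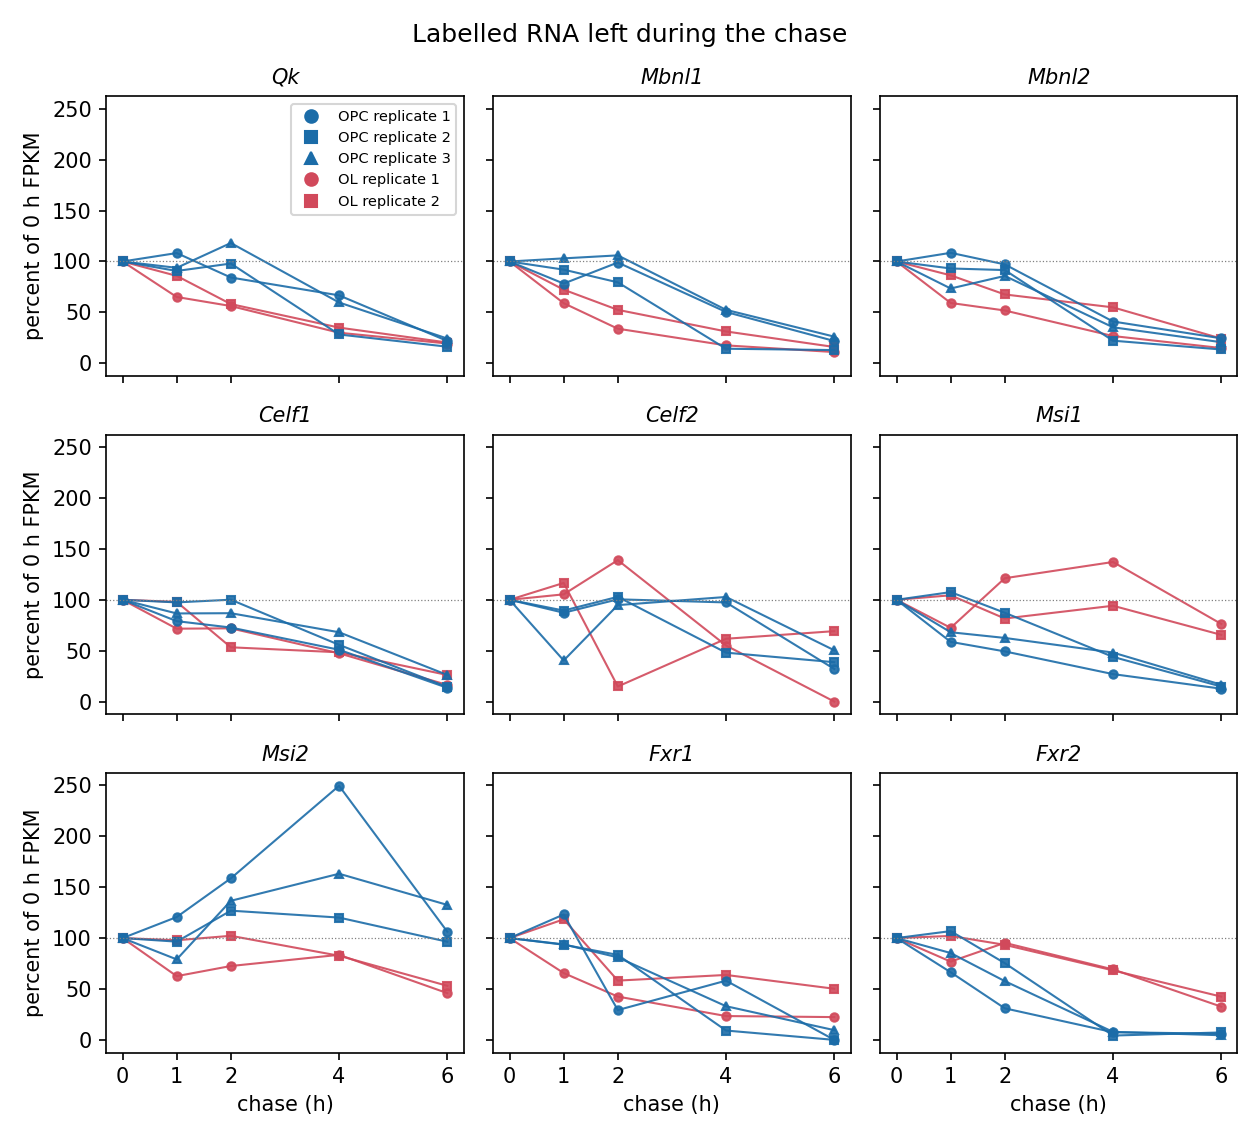
Labelled RNA of each listed member during the chase, as percent of the same replicate's 0 h FPKM, against chase time in h. Each line is 1 replicate (3 OPC, 2 OL), and the dotted line marks 100%. At 4 h and 6 h Msi1 and Fxr2 lie higher in both OL replicates than in all OPC replicates, whereas at 1 h OPC replicate 2 is above both OL replicates for each gene, and Msi2 stays at or above its start in OPCs at 6 h except for OPC replicate 2, at 96.4%.

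The difference of slopes was then tested as an interaction of cell type and time, with a value above 0 where loss was slower in OLs. This fit also took the libraries as independent, so its SEs and p-values do not measure the spread of slopes between replicates. Msi1 (0.37 ± 0.08 per h, limma adjusted p = 0.00149), Fxr2 (0.48 ± 0.09, limma adjusted p = 0.000664) and Fxr1 (0.46 ± 0.14, limma adjusted p = 0.0157) passed. That is 3 of 9 members above 0 against 27.5% of all transcripts, and 0 of 9 below 0 against 0.232%. No member below 0 passed limma's adjusted threshold, and 1 did at an unadjusted p under 0.05, Msi2, at -0.19 ± 0.08 (limma adjusted p = 0.0825). With the replicate block, which gives each replicate's 5 times their own intercept, Msi2 passed (limma adjusted p = 0.0276). Qk was at 0.00 ± 0.08 (limma adjusted p = 0.991).

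The shared difference between cell types matters here. The median slope difference of all transcripts was 0.14 per h, and centring each library on its median moved it to -0.07. After centring, the calls over all transcripts turned from 2252 above 0 and 19 below to 247 above and 1523 below, which are 3.02% and 18.6% of 8177. Fxr2 was the only member still above 0 with a call (0.27, limma adjusted p = 0.0160), whereas Msi1 (0.15, limma adjusted p = 0.0937) and Fxr1 (0.25, limma adjusted p = 0.130) did not pass. Relative to the other transcripts of the same libraries, 5 members were lost faster in OLs, namely Qk (-0.21, limma adjusted p = 0.0289), Mbnl1 (-0.25, limma adjusted p = 0.00782), Mbnl2 (-0.18, limma adjusted p = 0.0196), Celf2 (-0.30, limma adjusted p = 0.0447) and Msi2 (-0.40, limma adjusted p = 0.000770). No fit combined centring with leaving out times or replicates. On uncentred values Fxr2 also passed without the 6 h libraries (0.79, limma adjusted p = 0.000613) and without each single replicate, and so did Msi1 (0.38, limma adjusted p = 0.0268). Fxr1 did not pass without the 6 h libraries (0.13, limma adjusted p = 0.688), OPC replicate 2 (0.32, limma adjusted p = 0.124), OL replicate 1 (0.55, limma adjusted p = 0.0591) or OL replicate 2 (0.37, limma adjusted p = 0.168).

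**Figure D3:**
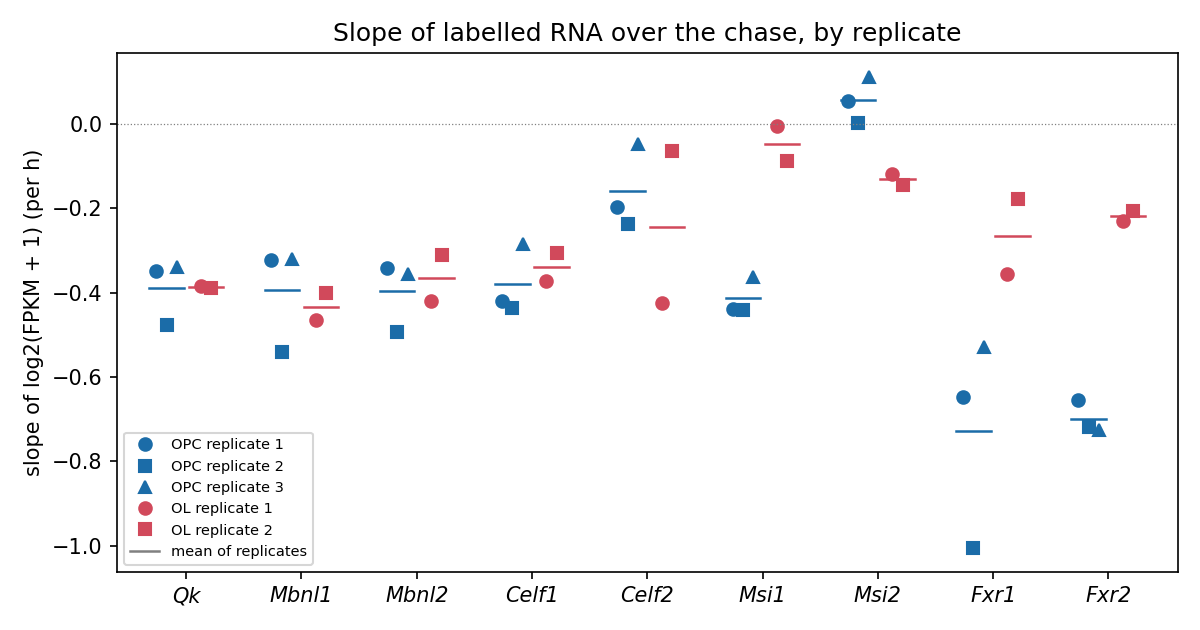
Slope of log2(FPKM + 1) per h of chase for each listed member, by replicate (3 OPC, 2 OL), with lines at the means of replicates and a dotted line at 0. The OPC and OL points do not overlap for Msi1, Msi2, Fxr1 and Fxr2, with Msi2 in the opposite direction to the other 3. The share of all transcripts without overlap was not counted, and their median slope difference was 0.14 per h.

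The third comparison uses the half-lives deposited for each replicate, which end just above 6 h and were set to 6 h beyond that. No member passed the test between cell types. By limma on log2 h, 0 of 9 were longer in OLs against 3.39% of 8112 transcripts and 0 of 9 shorter against 0.148%, and 2 of 9 (Fxr2 and Msi1) had an unadjusted p under 0.05 against 23.0% of all transcripts. The median log2 difference was -0.06 over the members and 0.37 over all transcripts.

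Fxr2 had half-lives of 1.18, 1.96 and 1.96 h in OPCs and of at least 6 h in both OL replicates. The log2 difference was 1.86 ± 0.29 (limma adjusted p = 0.0715), in which the OL values are at the limit. Half-lives refitted by least squares gave 1.65 and libraries rescaled to the mean decay curve 1.12 (limma adjusted p = 0.141 and 0.105). The difference passed on the linear scale (4.30 h, limma adjusted p = 0.0144) and without OPC replicate 1 (1.62, limma adjusted p = 0.00304). Neither gives support, since the OL values have no spread at the limit and the OPC values without replicate 1 are both the fixed value described in the next paragraph. Msi1 had 2.01, 3.37 and 2.95 h in OPCs and at least 6 h in both OL replicates (1.14 ± 0.27, limma adjusted p = 0.127). With each replicate centred on its median, the difference was 0.24 for Msi1 (limma adjusted p = 0.634) and 0.96 for Fxr2 (limma adjusted p = 0.0688). In both genes every OL value lay above every OPC value.

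Fxr1 was at 1.86, 1.96 and 2.51 h in OPCs, but its OL replicates stood at opposite ends, at 1.65 h and at least 6 h. Some of these numbers carry less information than they appear to. The half-lives were fitted by least absolute deviations, and such a fit gives 1.96 h whenever the 1 h and 2 h points lie above the curve and the 4 h and 6 h points below it, whatever their distance. That value was given to 25.6% of 8491 transcripts in OPC replicate 2, to 7.45% in replicate 3 and to 2.18% in replicate 1, against 0.474% and 1.38% of 9698 in OLs. Fxr1 and Fxr2 in OPC replicate 2 and Fxr2 in OPC replicate 3 hold it. Fxr1 in OPC replicate 1 holds the corresponding value of 1.86 h, which arises when the 1 h and 4 h points lie above and the 2 h and 6 h points below. Equal half-lives among these are therefore no measure of agreement.

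Qk had half-lives of at least 6, 2.29 and 5.38 h in OPCs and of 2.41 and 2.62 h in OLs. The OL values lay inside the OPC range, near its lower end, and the log2 difference was -0.74 ± 0.53 (limma adjusted p = 0.525). It was -0.48 without OPC replicate 1 and -1.18 without OPC replicate 2 (limma adjusted p = 0.777 and 0.0746). After each library was rescaled to the mean decay curve of the 5 replicates, Qk passed as shorter in OLs (-1.45, limma adjusted p = 0.0194), as did Celf2 (-0.87, limma adjusted p = 0.0279). Under that scaling 2.40% of all transcripts were shorter and 1.08% longer in OLs, with a median difference of 0. With each replicate centred on its median, Qk was at -1.64 (limma adjusted p = 0.0509), and 36.5% of all transcripts were shorter and 3.00% longer at an unadjusted p under 0.05, against 0.801% and 22.2% as deposited. Mbnl1 was at 4.05, 2.04 and 4.30 h in OPCs and at 1.32 and 2.27 h in OLs, and Mbnl2 at 3.11, 2.08 and 2.67 h and at 2.11 and 3.54 h. Celf1 ranged from 4.11 h to at least 6 h in OPCs, above its OL values of 3.72 and 3.10 h (-0.53 ± 0.21, limma adjusted p = 0.278). Celf2 (4.38 h to at least 6 h in OPCs, 4.65 and 5.74 h in OLs) and Msi2 (at least 6 h in all but OL replicate 1, at 5.34 h) were the most stable members in OPCs.

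**Figure D4:**
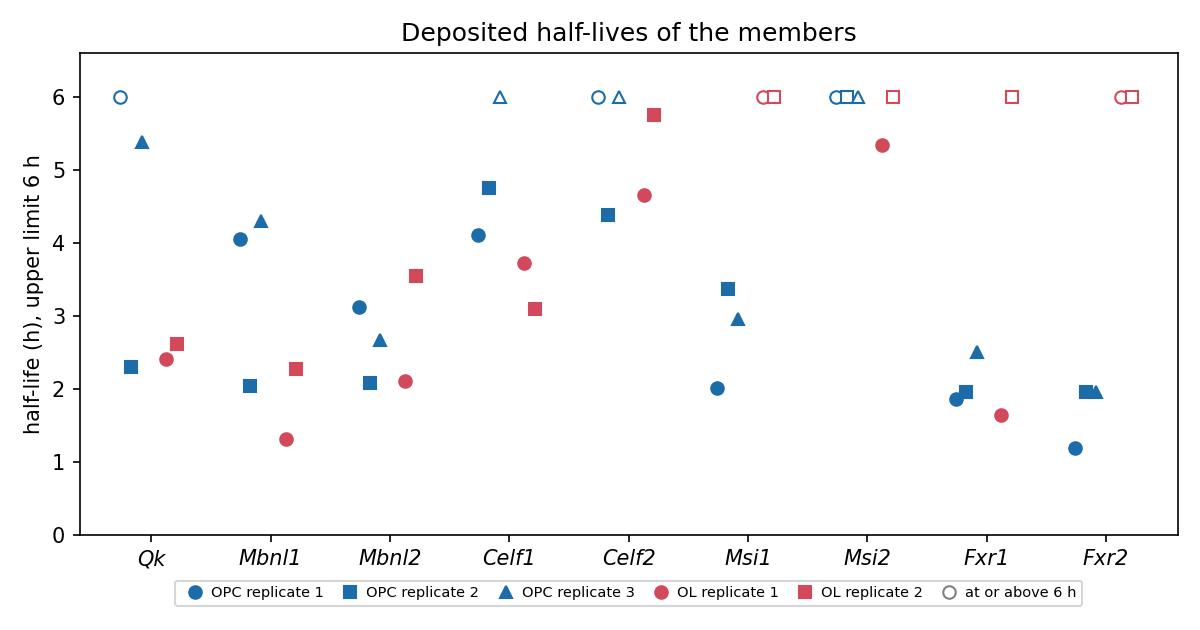
Deposited half-lives of the 9 listed members in h, by replicate (3 OPC, 2 OL). Open symbols are values at the upper limit of 6 h. Msi1 and Fxr2 are at the limit in both OL replicates and between 1.18 and 3.37 h in OPCs.

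The pattern of Qk over all 25 libraries was set beside that of the other transcripts by Pearson's r of log2(FPKM + 1), as a description across libraries that share the decline of the chase. Of 7561 transcripts with at least 5 FPKM on average at 0 h, the most alike were Far1 (0.981), Hook3 (0.975), Shprh (0.974), Ppp2r3a (0.972) and Naa15 (0.972). Among the members, Mbnl2 had an r of 0.935, above 98.6% of transcripts, and Fxr1 0.907, above 95.9%. Celf2 (0.229) and Msi2 (0.070) were least like Qk. Mbnl1 (0.803), Fxr2 (0.800), Msi1 (0.772) and Celf1 (0.695) lay between.

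Genes tied to the members were counted from 4 lists. Of 7 mRNAs that QKI is known to bind, 5 were tested at 0 h and 3 were higher in OLs, against 14.1% of all transcripts. Hnrnpa1, a splicing factor, was at -0.48 ± 0.19 (limma adjusted p = 0.0836). Mbp, the myelin basic protein, stood at 1.19 to 3.99 FPKM in OPCs and at 3213 and 1295 FPKM in OLs (9.27 on the log2 scale, limma adjusted p = 6.75e-06). Sirt2 rose by 4.63 and Map1b by 3.24 (limma adjusted p = 3.13e-05 and 3.99e-05). Mag was listed for OLs only. By limma 0 of the 5 passed for half-life, against 3.39% longer and 0.148% shorter of all transcripts. For the difference of slopes 0 passed, against 27.5% above 0 and 0.232% below. At an unadjusted p under 0.05 limma had 1 for half-life, against 23.0% of all transcripts. For the difference of slopes it had 3 (1 above and 2 below 0, against 39.6% and 0.819%). With each library centred on its median, the difference of slopes passed below 0 for 2 of the 5, against 18.6% of all transcripts. The list's medians were 0 and 0.15 against 0.37 and 0.14 over all transcripts. Mbp and Mag are also oligodendrocyte markers.

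Of 9 relatives of the members, 4 were tested and 2 were lower in OLs at 0 h, against 17.5% of all transcripts. These were Khdrbs3, a STAR protein (-0.60, limma adjusted p = 0.0382), and Sf1, which binds the branch point and is itself a STAR protein (-0.83, limma adjusted p = 0.0102). The Sf1 call was lost without OPC replicate 3, OL replicate 1 or OL replicate 2 (limma adjusted p = 0.0598 to 0.0657), and that of Khdrbs3 without any of OPC replicates 2 and 3 and OL replicates 1 and 2 (limma adjusted p = 0.0662 to 0.168). The slope of Sf1 was higher in OLs by 0.37 per h (limma adjusted p = 0.00134), but did not pass with each library centred on its median (0.16, limma adjusted p = 0.0786) or without the 6 h libraries (0.22, limma adjusted p = 0.162). Of 5 protein partners of FMRP, 4 were tested, and Cyfip2, a subunit of the WAVE actin regulatory complex, stood at 3.73 to 7.29 FPKM in OPCs and at 136 and 116 FPKM in OLs (4.30, limma adjusted p = 1.97e-05), while Cyfip1 was at 0.05 ± 0.23 (limma adjusted p = 0.891). By limma 0 of these 4 passed for half-life, against 3.39% longer and 0.148% shorter of all transcripts. At an unadjusted p under 0.05 limma also had 0, against 23.0%.

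Of 16 other RNA-binding proteins of neural cells, 13 were tested, and by limma 3 were lower and 0 higher in OLs at 0 h, against 17.5% and 14.1% of all transcripts. At an unadjusted p under 0.05, limma had 4 lower and 1 higher. Ptbp1, a splicing repressor whose loss goes with neural differentiation, stood at 124 to 127 FPKM in OPCs and at 34.6 and 40.6 FPKM in OLs (-1.72, limma adjusted p = 0.000113). Its half-life was longer in OLs (0.76, limma adjusted p = 0.0271), the single half-life call among the 4 lists, against 0.37 for the median transcript. With each replicate centred on its median it turned to -0.15 (limma adjusted p = 0.741), and the call was also lost in the refits without the 6 h libraries (0.20, limma adjusted p = 1) and by least squares (0.51, limma adjusted p = 0.284), and without OPC replicate 2, OPC replicate 3, OL replicate 1 or OL replicate 2 (0.73 to 0.76, limma adjusted p = 0.0730 to 0.113). Hnrnpf (-0.69) and Rbfox2 (-0.73) were the others that were lower (limma adjusted p = 0.0176 and 0.0402). The Hnrnpf call was lost without OPC replicate 3, OL replicate 1 or OL replicate 2 (limma adjusted p = 0.0618 to 0.0906), and that of Rbfox2 without OPC replicate 2, OPC replicate 3 or OL replicate 1 (limma adjusted p = 0.0630 to 0.283). The difference of slopes passed above 0 for 4 of the 13, against 27.5% of all transcripts, among them Ptbp1 (0.35 per h) and Pcbp1 (0.25 per h), and with each library centred on its median 0 passed above 0 (Ptbp1 0.14, limma adjusted p = 0.0789) and 5 of the 13 below 0, against 18.6% of all transcripts.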

How the data were processed

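RNA labelled with 5-EU was captured and sequenced in 15 OPC and 10 OL libraries. According to the submitters' processing notes and the study's methods, reads were aligned with HISAT2 2.1.0 to GRCm38, and the FPKM values of 1 transcript per gene, from StringTie 1.3.5, were scaled to labelled spike-in RNA by the authors and deposited for OPCs and OLs in separate tables. This scaling was relative to each replicate's 0 h library, so the 0 h values are not scaled between replicates or cell types. The deposited half-lives, in h, were fitted by the authors in each replicate by least absolute deviations, end just above 6 h, and were set to 6 h here where above it. The files hold no counts, so the depth is unknown.

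Each fit was made over all transcripts in limma 3.58.1 (R 4.3.3, two-sided, Benjamini-Hochberg, threshold 0.05): log2 half-life, log2(FPKM + 1) at 0 h with a mean trend, and the slope of log2(FPKM + 1) over chase time within and between cell types. Fits were tested on simulated data. Groups came from the sample titles and cell types. Named genes were the members, the listed genes that passed at 0 h or for half-life, and the 5 transcripts most like Qk. Cyfip1, Pcbp1, Hnrnpa1, Mag and the single cell type markers were outside that rule and were named after their values were seen. The members and lists were chosen with earlier results of these data known. Sequences were read from GENCODE M21, in which all 10104 listed transcripts matched. Some single genes of the lists are not reported here.

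OL and OPC replicates were not paired, since the deviations of same-numbered replicates correlated at 0.04 (0 h) and -0.06 (half-life), and the study does not say which OPC replicates match. The slope fits took the libraries as independent, with a term for each replicate only in the replicate block. Alternatives changed the pseudocount, filter, scaling, times used, scale of the half-life and its fit, the trend, the replicate block, and each replicate in turn. The paralogue ratios without a pseudocount were added after seeing the data.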

Additional observations from a re-analysis of the deposited data

Results flagged for a closer look

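For 3 members the loss of labelled RNA differed between the cell types by a test of the difference itself, the interaction of cell type and chase time in limma, which 27.5% of all transcripts passed in the same direction. The SEs and p-values of that fit are over libraries taken as independent, and not over replicates. The slope of Msi1 was higher in OLs by 0.37 ± 0.08 on the log2 scale per h (limma adjusted p = 0.00149), with both OL replicates above all 3 OPC replicates. That of Fxr2 was higher by 0.48 ± 0.09 (limma adjusted p = 0.000664), again without overlap. That of Fxr1 was higher by 0.46 ± 0.14 (limma adjusted p = 0.0157), without overlap, and did not pass without the 6 h libraries. Of these, Fxr2 alone passed after each library was centred on its median. No group had enough replicates for a check for single replicates that stand apart.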

How the results depend on the processing

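With each library centred on its median, the slope passed for 4458 transcripts in OPCs (3322 above 0) and 3709 in OLs (2681 above 0), with 4 members called in OPCs and 6 for the difference of slopes. The OPC slopes then turned to 0.0506 for Qk, 0.0442 for Mbnl1, 0.0420 for Mbnl2, 0.0582 for Celf1, 0.28 for Celf2 and 0.0254 for Msi1, and the OL slopes to 0.19 for Msi1, 0.10 for Msi2 and 0.0168 for Fxr2. The difference of slopes turned to -0.21 for Qk, -0.18 for Mbnl2 and -0.17 for Celf1, and the 0 h difference of Fxr2 to -0.00891. Half-lives centred by replicate left 1 call (3205 at an unadjusted p under 0.05, most of them shorter in OLs), with Mbnl2 at -0.82, Fxr1 at -0.31, and Qk, Mbnl1, Celf1, Celf2 and Msi2 each below 0 at a limma adjusted p of 0.0509. Rescaling to the mean decay curve called 2 members and 283 transcripts (88 above 0 and 195 below, in place of 275 and 12), and put Mbnl2 at -0.59.

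For half-lives, 287 calls became 31 without the 6 h libraries (Mbnl2 -0.50, Fxr1 -0.80), 600 on the linear scale (1 member), 0 with a mean trend (1898 at an unadjusted p under 0.05) and 24 by least squares, an alternative chosen after seeing the data (Mbnl2 -0.37). Without the 6 h libraries the decline in OLs was called for 3924 transcripts and 5 members (Msi1 0.0615), and the difference of slopes for 1206 (Qk -0.14, Celf1 -0.0719).

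With the replicate block, limma called 0 half-lives (1554 at an unadjusted p under 0.05), Celf2 turned to 0.0115, and the 0 h difference of Fxr2 to -0.00213. It gave Msi2 its call for the difference of slopes and Fxr1 one at 0 h, and changed no other call of a member.

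Leaving out each replicate in turn gave 167 to 236 half-life calls (0 to 1 members), 1183 to 2912 calls at 0 h (1 to 4 members) and 688 to 2401 for the difference of slopes (2 to 4 members). Over the same fits the half-life difference ran from -0.29 to 0.45 for Mbnl2, from -0.22 to 0.0886 for Celf2 and from -0.34 to 1.52 for Fxr1. The 0 h difference ran from -0.53 to 0.10 for Msi2, from -0.74 to 0.29 for Msi1 and from -0.0537 to 0.12 for Fxr2. The difference of slopes ran from -0.0426 to 0.0265 for Qk, from -0.0242 to 0.0850 for Mbnl2 and from -0.26 to 0.0952 for Celf2. A lone OL replicate is assumed to vary like the others. Of the other values of single members, 362 kept direction and side of the threshold, 15 gained a call and 21 lost one, and 71 counts stayed within 1.5 times. The causes were not tested. Transcripts at the 6 h limit in every replicate of a group have no spread, so their standard errors are too small.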
